A study of Mus musculus with 19 samples.

Results

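In cultured mouse myoblasts carried from growth to fusion, 90 protein-coding genes were at least 3-fold higher at 48 h than before or after. They were chosen by TPM, a unit of transcript abundance scaled for transcript length and library depth, summed per gene, in the libraries labelled wild type (WT). A gene was a member when its mean at 48 h was at least 5 TPM and at least 3 times its mean at 24 h and its mean at 72 h, with 0.1 TPM added to each mean. The rule found 90 of the 35598 genes measured, of which 21882 are protein-coding and 8686 of those reached 5 TPM at 48 h in WT. The WT time course therefore describes how the members were picked and is given without a test. Libraries of the other genotype label were not used by the rule and carry the tests of the time course.

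The cells were primary myoblasts, the dividing descendants of muscle stem cells, isolated from hind-limb muscle of mice whose age and strain the labels do not give. Proliferating myoblasts were sampled at 24 h in growth medium, differentiated myotubes at 48 h, when the differentiation step ended, and fused myotubes at 72 h, when the fusion step ended. The WT label covered 3, 3 and 4 libraries at these times and the label Glud1KO covered 3, 2 and 4. Glud1 encodes mitochondrial glutamate dehydrogenase, which interconverts glutamate and alpha-ketoglutarate. How Glud1 was removed is not in the labels. File names carry the letters KO for WT libraries too, and a further T for the Glud1KO libraries, with no explanation of the T, so the second group is called KO-labelled here. Replicates are numbered as biological without saying whether they were separate animals or cultures, so each p-value measures the spread between these libraries alone.

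Muscle differentiation is a relay of gene programmes. Myogenin, the product of Myog, and the related factor MyoD bind short DNA elements called E-boxes and switch on genes for cell cycle exit, migration, fusion and contraction, after which many early differentiation genes are turned down again as the fused fibres mature. A gene that is high only while mononucleate cells are committing and beginning to fuse can be missed when growing myoblasts are compared with finished myotubes.

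Total estimated counts ranged from 16168131 to 30742634 over the 19 libraries. Glud1 counts on a common library scale (CPM) overlapped between the genotype labels at every time, with 184.4 to 192 against 185 to 190 at 24 h (WT first), 101.8 to 111.9 against 96.6 to 102.9 at 48 h, and 131 to 141.3 against 130.2 to 138.6 at 72 h, so the total count of the targeted gene did not separate the labels. Its TPM was lower in every KO-labelled library than in every WT library of the same time, for example 58.9 to 64.5 against 79.5 to 86.2 at 48 h. All 9 markers of skeletal myogenic cells had group means of 1 TPM or more at 24 h and 48 h under both labels. Among markers of other cells, the summed level of 10 fibroblast markers ranged at 24 h from 150.2 to 167.9 TPM for WT and from 129.7 to 153.8 TPM under the KO label, most of it Col3a1, then 12.4 to 13.4 and 6.14 to 7.45 TPM at 48 h and at most 4.21 TPM at 72 h, with Dpt at 0 in every group mean. The 9 immune markers summed at 48 h to between 5.52 and 6.87 TPM for WT and between 7.57 and 8.81 TPM under the KO label, higher than at 24 h or 72 h and mostly Itgam, with Cd3e and Cd14 at 0 in the mean of the KO-labelled group. Endothelial, glial and adipocyte markers summed to at most 2.66 TPM in any library. The 6 smooth muscle or pericyte markers summed at 24 h to 21.39 to 22.8 TPM for WT and 16.8 to 19.02 TPM under the KO label, chiefly Rgs5. At 48 h they summed to 16.02 to 20.06 TPM, chiefly Abcc9. At 72 h, again chiefly Abcc9, the sums were 32.49 to 35.55 TPM for WT and 31.69 to 36.22 TPM under the KO label. The part of these cells in the results below was not tested, and in bulk RNA fewer cells of a type and less RNA per cell cannot be told apart.

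Promoters of 73 members were found in RefSeq (build GRCm38.p6) as the 250 bases before and 50 after a transcription start. For 65 of them that start lay within 100 bases of the annotated start of the gene. E-boxes have the letters CANNTG, which read the same on both strands, and 55 of these 73 promoters held at least 1, or 75.3%, against 68.4% of 16517 promoters and 61.0% of the 6959 promoters whose genes reached 5 TPM at 48 h in WT. The form CAGCTG, a subset of CANNTG, was in 19, or 26.0%, against 15.2% of all promoters and 14.3% of those expressed, and the form CAGGTG on either strand was in 24, or 32.9%, against 19.3% and 15.8%. The muscle MCAT element (CATTCC, either strand) was in 16, or 21.9%, against 13.2% and 11.6%, while the consensus of the MEF2 factors was in 2, Cmah and Ttn, or 2.74% against 2.88% and 1.78%. These are counts of letters in a short window and not sites of binding.

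The promoters of Myog and Hes6, the members with the highest level among transcription factors, of Ankrd2, which had the highest ratio of 48 h to 24 h, and of Best1, which lies head to head with another member, are shown 5′ to 3′ on the strand of the gene, with each CANNTG in capitals. They lie at chr1:134289754-134290053 (plus strand), chr1:91413989-91414288 (minus), chr19:42035777-42036076 (plus) and chr19:10001584-10001883 (minus).
Myog: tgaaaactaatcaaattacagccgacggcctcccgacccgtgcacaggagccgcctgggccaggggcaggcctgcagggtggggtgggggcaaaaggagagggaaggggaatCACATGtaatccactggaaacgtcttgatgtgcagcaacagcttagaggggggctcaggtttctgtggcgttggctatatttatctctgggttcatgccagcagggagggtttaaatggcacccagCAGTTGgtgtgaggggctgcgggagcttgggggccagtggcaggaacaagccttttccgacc
Hes6: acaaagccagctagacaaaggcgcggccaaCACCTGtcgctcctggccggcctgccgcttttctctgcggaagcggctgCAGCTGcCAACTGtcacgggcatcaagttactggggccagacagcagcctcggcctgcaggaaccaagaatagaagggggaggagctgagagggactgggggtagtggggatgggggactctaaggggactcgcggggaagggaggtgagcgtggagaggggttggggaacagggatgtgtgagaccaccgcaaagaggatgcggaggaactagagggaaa
Ankrd2: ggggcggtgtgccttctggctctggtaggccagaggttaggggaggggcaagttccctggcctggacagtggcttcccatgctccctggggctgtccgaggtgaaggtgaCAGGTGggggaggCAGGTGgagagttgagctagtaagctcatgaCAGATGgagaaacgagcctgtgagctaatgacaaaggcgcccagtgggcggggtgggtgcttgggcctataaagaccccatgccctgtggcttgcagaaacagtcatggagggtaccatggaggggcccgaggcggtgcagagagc
Best1: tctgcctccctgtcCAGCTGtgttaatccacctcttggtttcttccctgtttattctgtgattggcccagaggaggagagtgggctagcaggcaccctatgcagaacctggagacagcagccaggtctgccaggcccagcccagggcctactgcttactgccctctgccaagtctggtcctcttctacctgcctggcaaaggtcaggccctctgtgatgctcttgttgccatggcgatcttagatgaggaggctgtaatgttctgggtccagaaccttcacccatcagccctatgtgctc
Myog held 2 E-boxes, the nearer starting 12 bases before the transcription start. Hes6 and Ankrd2 each held 3, and Best1 held 1, of the CAGCTG form.

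Mean TPM at 48 h in WT ran from 5.04 to 2382 in Myog, with 27 members under 10 TPM and 11 over 100 TPM. The median member stood at 2.33 TPM at 24 h, 17.9 TPM at 48 h and 3.79 TPM at 72 h in WT. In KO-labelled libraries the medians were 2.28, 18.5 and 4.36 TPM. In 61 members the higher of the flanking WT stages was 72 h, so the approach to the peak was steeper than the descent, and in 29 it was 24 h. The median ratio of the 48 h mean to the higher flanking mean was 3.82, and the largest were 19.8 in 1520401A03Rik, 15.4 in Fndc1 and 10.8 in Syt8. Every WT library at 48 h stood above every WT library of the other times in 89 members. Gm3298 was the exception, with WT values at 48 h of 11.2, 7.43 and 1.31 TPM. It belongs with D830030K20Rik to a family of near-identical genes on chromosome 14, between which estimated counts can be exchanged, so both are uncertain.

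**Figure D1:**
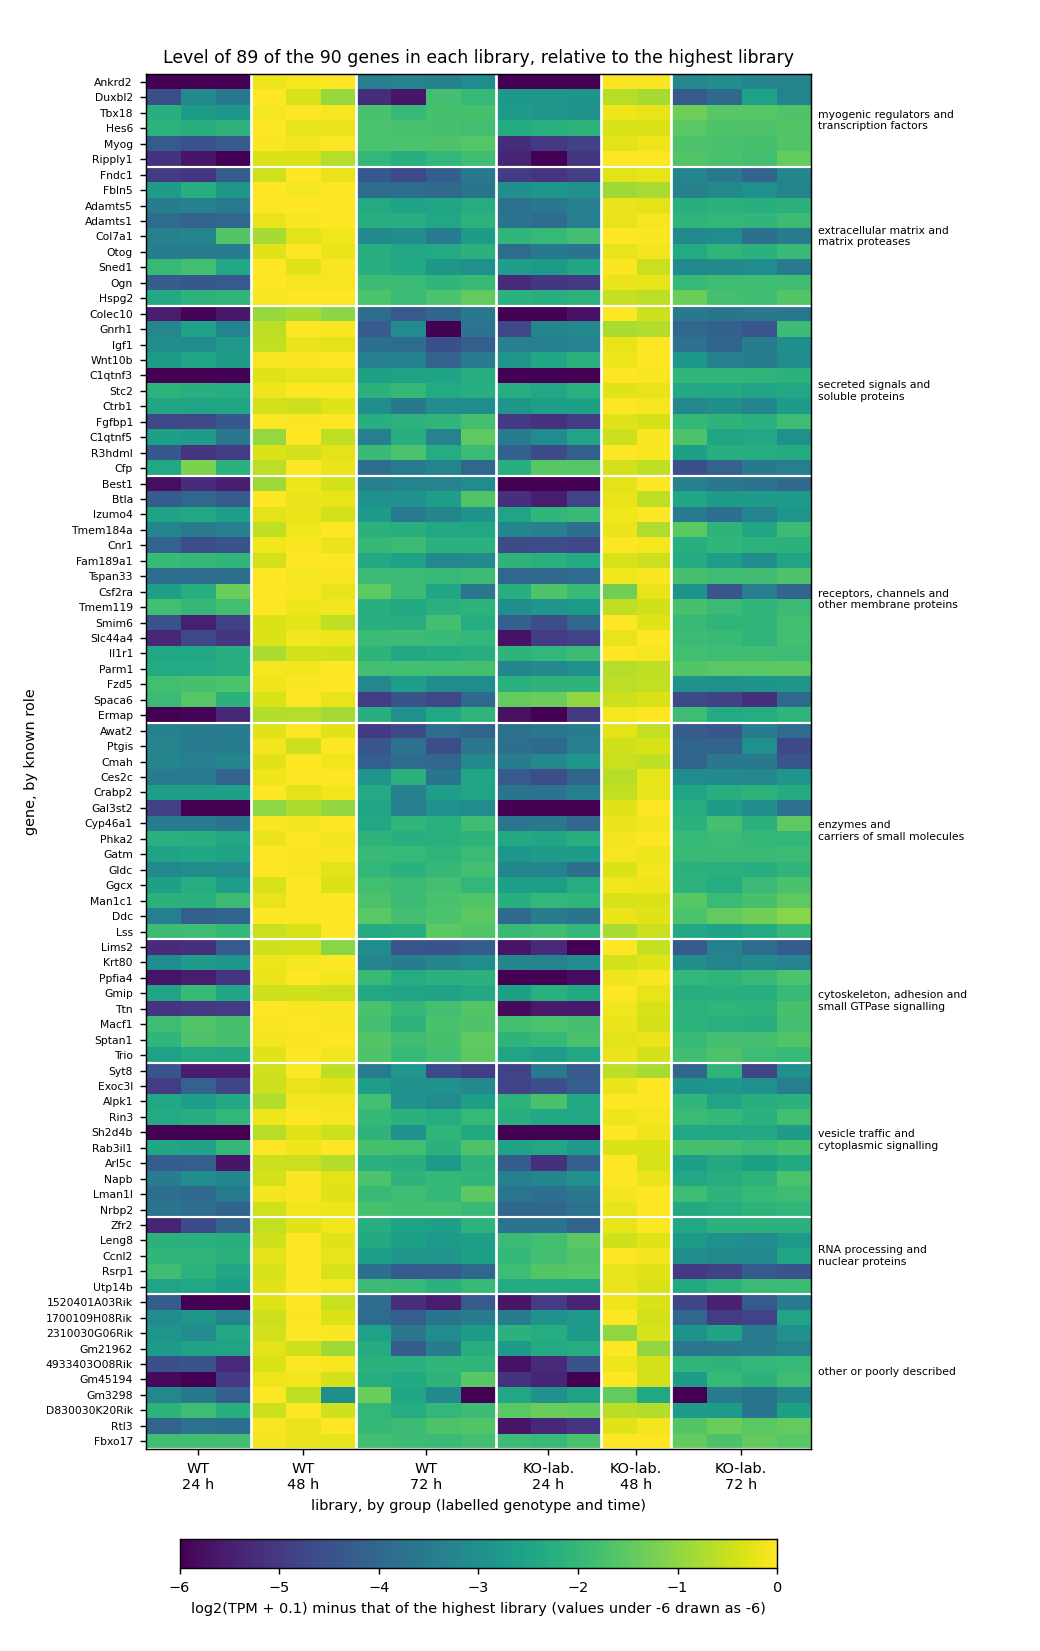
TPM of 89 of the 90 genes (rows, grouped by known role) in each of the 19 libraries (columns, grouped by genotype label and time), as log2(TPM + 0.1) minus the value of the gene's highest library. The 5 libraries at 48 h, 3 WT and 2 KO-labelled, form the bright columns under both labels, with Gm3298 as the row where a WT library at 48 h is dim.

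The 3 members just inside the ratio of 3 were Nrbp2 at 3.02, Trio at 3.01 and Cfp at 3.01, and the genes just outside included Ilkap at 2.98 and Tubb2a at 2.97. Tubb2a, a beta-tubulin, had WT means of 178.3, 869.1 and 292.7 TPM at 24, 48 and 72 h, and met the rule in KO-labelled libraries with a ratio of 3.04. The set therefore has no gap at its edge.

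The KO-labelled libraries showed the same transient rise in nearly every member. Counts tested with edgeR's quasi-likelihood test, adjusted over 15123 genes by Benjamini-Hochberg and called at an adjusted p under 0.05, rose from 24 h to 48 h in 89 of 90 members, where 41.3% of all genes tested rose, and fell in 0, where 42.5% of all genes fell. From 48 h to 72 h, 89 members fell, where 34.4% of all genes fell, and 0 rose, where 35.8% did. In either direction, 83.7% of all genes were called over the first step and 70.2% over the second. Both calls were made in 89 members and in 17.3% of all genes tested. Gm3298 missed both, with adjusted p values of 0.236 and 0.0505. The median log2 fold change of the members was 3.42 from 24 h to 48 h and -2.06 from 48 h to 72 h, beside medians over all genes of -0.0038 and 0.015. In all 90 members, both KO-labelled libraries at 48 h stood above all 7 at the other times, as did 15.5% of genes tested. The 2 comparisons share the 48 h libraries, of which there were 2.

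The height of the peak was similar on the same scale. The ratio of the KO-labelled 48 h mean to the higher flanking mean had a median of 3.77 and ran from 1.73 in D830030K20Rik to 17.1 in 1520401A03Rik, and it exceeded the WT ratio in 32 members. It was at least 3 in 66 members, at least 2 in 86 and under 2 in D830030K20Rik, Gm3298, Spaca6 and Parm1. Since the WT ratio chose the members, a lower ratio under the other label is favoured by the choice. Applied to the KO-labelled means alone, the rule found 86 genes, or 1.02% of the 8392 protein-coding genes at 5 TPM there, and 62 genes met it under both labels, which is 68.9% of the WT set and 72.1% of the KO-labelled set. Of the 24 genes that met it in KO-labelled libraries only, Mymx, the fusion micropeptide of muscle, had a ratio of 3.79 against 2.84 in WT, with 48 h means of 191.5 TPM and 133.3 TPM. Gbp8, a guanylate-binding protein of a family with close paralogs, had 4.76 against 0.915 and is uncertain for that reason.

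**Figure D2:**
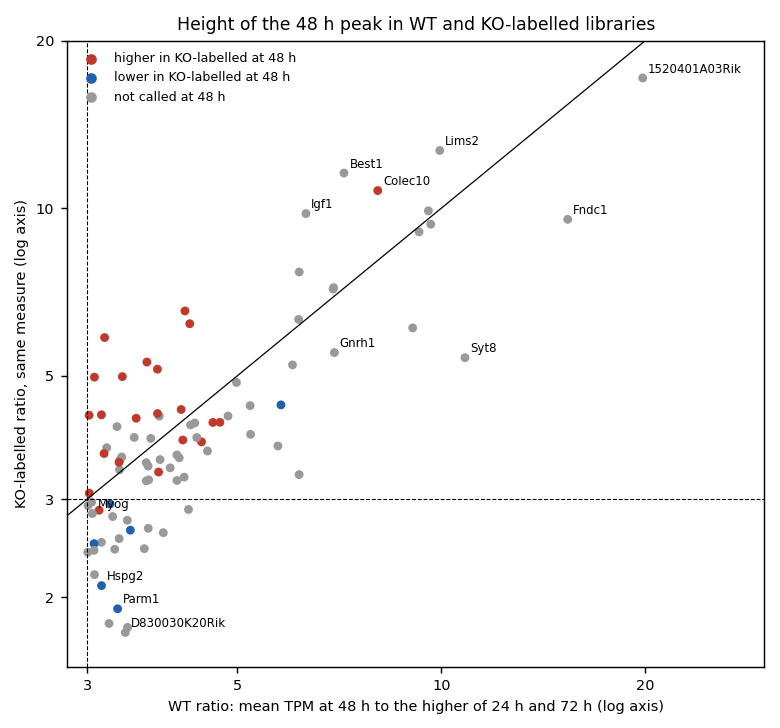
Ratio of mean TPM at 48 h to the higher of the 24 h and 72 h means, in WT (x axis, log) and KO-labelled libraries (y axis, log), for the 90 genes. The solid line marks equal ratios and the dashed lines a ratio of 3, colours mark the call between the labels at 48 h by edgeR, and 66 of the 90 points lie at or above a KO-labelled ratio of 3.

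Among the myogenic regulators and transcription factors, 6 members, Myog was the most abundant gene of the whole set. It encodes the basic helix-loop-helix factor that commits myoblasts to terminal differentiation. Its TPM in WT was 125, 110.1 and 124 at 24 h, 2403, 2279 and 2464 at 48 h and 763, 756, 772 and 829 at 72 h. KO-labelled libraries held 66.1, 76.2 and 87.4 TPM, then 2069.8 and 2226 TPM, then 772, 746, 729.9 and 793 TPM. The 48 h libraries did not overlap those of any other time, and both KO-labelled values lay under the WT values at 48 h while the labels overlapped at 72 h. Under the KO label Myog rose by 5.07 on the log2 scale from 24 h to 48 h (SE 0.080, edgeR adjusted p = 7.84e-28) and fell by 1.48 to 72 h (SE 0.066, edgeR adjusted p = 5.87e-17). Between the labels, counts of Myog were lower in KO-labelled libraries at 24 h (log2 fold change -0.63, SE 0.071, edgeR adjusted p = 4.11e-07) and were not called at 48 h (log2 fold change -0.0087, SE 0.071).

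Hes6, a relative of the Notch-induced Hes repressors that promotes differentiation, was at 261, 244 and 264 TPM in WT at 24 h, 1140.2, 971 and 1012 TPM at 48 h and 349, 344, 338 and 326 TPM at 72 h. KO-labelled values were 231, 249.9 and 267, then 898 and 912, then 392, 365, 357 and 377 TPM. The peak stood clear of both flanks under both labels, but from a higher base than that of Myog. Its KO-labelled ratio was 2.43. Both KO-labelled TPM values at 48 h lay under the WT values, but its counts were not called at 48 h (log2 fold change -0.065, SE 0.058), and its 72 h counts were called higher than in WT (log2 fold change 0.17, SE 0.046, edgeR adjusted p = 0.0132). Ankrd2, a stretch-responsive ankyrin-repeat protein that shuttles between sarcomere and nucleus, was nearly silent at 24 h, with 0.798, 0.521 and 0.699 TPM in WT, and reached 77.7, 82 and 86.7 TPM at 48 h before 7.95, 8.61, 8.4 and 10.1 TPM at 72 h. The KO-labelled libraries gave 0.451, 0.989 and 0.322, then 85.2 and 85.1, then 9.14, 10.7, 8.84 and 8.55 TPM. The lowest 48 h library, at 77.7 TPM, stood well above the highest of the others, at 10.7 TPM, and the labels overlapped at each time. No difference between the labels was called for Ankrd2. Ripply1, a co-repressor known from somite formation, rose in KO-labelled libraries from 0.408, 0.157 and 0.556 to 20.8 and 21.1 TPM. Tbx18, a T-box factor, rose there from 7.52 to 46.7 TPM and Duxbl2, a double-homeobox gene with close copies, from 1.21 to 5.68 TPM, both as group means.

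The 10 members of the extracellular matrix and its proteases all rose and fell in KO-labelled libraries, as did 89 of all 90 members. The same 2 calls were made in 17.3% of all genes tested. Fndc1, a fibronectin type III domain protein, was at 1.56, 1.43 and 2.67 TPM in WT at 24 h, 38.5, 51.6 and 44.7 at 48 h and 2.44, 1.93, 2.68 and 4.26 at 72 h. Under the KO label it was at 1.55, 1.4 and 1.68, then 43 and 43.9, then 5.28, 4.21, 3.02 and 5.33 TPM. The lowest of the 5 libraries at 48 h, at 38.5 TPM, lay far above the highest of all others, at 5.33 TPM. It rose by 4.96 (SE 0.12) and fell by 3.43 (SE 0.10) on the log2 scale in KO-labelled libraries, with edgeR adjusted p values of 8.34e-24 and 1.4e-20. Ogn, the leucine-rich proteoglycan osteoglycin, had the highest level of the group, with 248, 235 and 232 TPM at 48 h against 13, 12 and 12.2 at 24 h and 67.2, 66.2, 59.9 and 64.3 at 72 h.

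Adamts1 and Adamts5, secreted metalloproteinases that cut large proteoglycans such as versican, lie 53060 bases apart on the minus strand of chromosome 16, at chr16:85793827-85803113 and chr16:85856173-85901828. Adamts1 was at 2.97, 2.52 and 2.75 TPM in WT at 24 h, 39.6, 43.4 and 45.3 at 48 h and 9.38, 9.39, 8.47 and 10.3 at 72 h. Adamts5 was at 2.26, 2.46 and 2.15, then 26.2, 25.9 and 26.2, then 5.15, 4.51, 4.68 and 5.28 TPM. Both had steep ascents and a 72 h level still above the 24 h level. In KO-labelled libraries Adamts1 was at 3.35, 3.02 and 4.12, then 39.7 and 42.5, then 10.7, 11, 10.8 and 12.1 TPM, and was called higher than WT at 24 h (log2 fold change 0.41, SE 0.092, edgeR adjusted p = 0.00393) and at 72 h (0.27, SE 0.056, edgeR adjusted p = 0.00166). Adamts5 followed there with 1.83, 2.02 and 2.39, then 23.3 and 22, then 5.54, 5.82, 5.58 and 5.86 TPM. Of the 47 genes tested in the list of matrix genes to which they belong, 12 rose and 26 fell from 24 h to 48 h in KO-labelled libraries. Their median log2 fold change was -0.43, and 6 rose and then fell. Over all genes tested, 41.3% rose, 42.5% fell and 17.3% rose and then fell.

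Secreted signals and other soluble proteins numbered 11. C1qtnf3, an adipokine of the complement C1q family, had the highest level among them at 48 h. Its TPM in WT was 14.7, 13.3 and 15 at 24 h, 796, 846 and 846 at 48 h and 163, 167, 169.7 and 205 at 72 h. KO-labelled libraries held 8.04, 8.49 and 10.5, then 980.0 and 945, then 235, 238, 237 and 223 TPM. The labels did not overlap at any time, with the KO-labelled libraries lower at 24 h and higher at 48 h and 72 h. The log2 fold changes between labels were -0.66 (SE 0.10), 0.35 (SE 0.072) and 0.43 (SE 0.059), with edgeR adjusted p values of 8.57e-05, 0.000536 and 8.43e-06.

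Igf1, the growth factor that drives muscle differentiation and hypertrophy, was at 1.34, 1.27 and 1.62 TPM in WT at 24 h, 8, 10.4 and 9.89 at 48 h and 0.762, 0.707, 0.409 and 0.55 at 72 h. KO-labelled values were 1.02, 1 and 1.06, then 10.2 and 11.7, then 0.787, 0.608, 0.975 and 1.36 TPM. Unlike Myog, it was under its 24 h level at 72 h in every WT library, and its 72 h and 24 h levels in KO-labelled libraries were not called different (log2 fold change 0.15, SE 0.18). It was the single member among the 41 tested genes of its list of IGF, TGF-beta and BMP signals. Of that list 14 rose and 23 fell from 24 h to 48 h under the KO label, with a median log2 fold change of -0.52. Among all genes tested, 41.3% rose and 42.5% fell.

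The Wnt pathway contributed a ligand and a receptor. Wnt10b, the ligand, was at 0.828, 1.01 and 0.853 TPM in WT at 24 h, 5.76, 5.95 and 6 at 48 h and 0.481, 0.499, 0.256 and 0.439 at 72 h. The KO-labelled series was 0.771, 1.02 and 1.26, then 5.42 and 6.07, then 0.783, 0.49, 0.452 and 0.616 TPM. No call between the labels was made for Wnt10b. Fzd5, a Frizzled receptor, was at 3.41, 3.54 and 3.7, then 11, 12 and 12.2, then 1.23, 1.87, 1.35 and 1.35 TPM in WT and at 2.61, 2.76 and 2.77, then 8.05 and 8.28, then 1.53, 1.44, 1.56 and 1.57 TPM in KO-labelled libraries. Every KO-labelled library lay under every WT library at 24 h and at 48 h. In KO-labelled libraries Wnt10b was lower at 72 h than at 24 h by 0.61 on the log2 scale (log2 fold change -0.61, edgeR adjusted p = 0.00328) and Fzd5 by 0.51 (log2 fold change -0.51, edgeR adjusted p = 8.28e-07). Of the 34 Wnt pathway genes tested, 16 rose and 14 fell from 24 h to 48 h there, 6 rose and then fell, and the median log2 fold change was 0.44. The shares over all genes tested were 41.3% rising, 42.5% falling and 17.3% rising and then falling.

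Several soluble members are better known outside muscle. Colec10, a liver collectin that binds sugars, was at 5.06, 5.55 and 4.64 TPM in WT at 48 h and 9.68 and 7.14 TPM in KO-labelled libraries, against at most 0.108 TPM in any 24 h library and 0.72 TPM in any 72 h library. Gnrh1, the precursor of the hypothalamic hormone that releases gonadotropins, was at 4.76, 7.31 and 7.04 TPM in WT at 48 h and at 4.24 and 4.48 TPM under the KO label. It was low at other times, at 0.697, 1.14 and 0.652 TPM in WT at 24 h and 0.285, 0.76, 0 and 0.466 TPM at 72 h, so the base of its ratio rests on few counts. Fgfbp1, which releases fibroblast growth factors from matrix, was at 3.62, 3.61 and 4.63 TPM, then 97.6, 95.2 and 97.9 TPM, then 20.6, 22.5, 23.1 and 28.7 TPM in WT. Stc2, a stanniocalcin that restrains the protease controlling IGF availability, was at 10.1, 9.3 and 9.06, then 39.8, 44.3 and 43.7, then 9.87, 11, 8.79 and 9.45 TPM in WT. Both stood clear of their flanks, but Fgfbp1 stayed above its 24 h level at 72 h, where Stc2 overlapped it. Ctrb1 (a chymotrypsinogen), R3hdml, C1qtnf5 and Cfp (properdin of the complement system) completed the group, with WT 48 h means of 18.2, 14.6, 11.8 and 7.31 TPM. C1qtnf5 shares its locus and strand with Mfrp, so reads of the pair can be exchanged.

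**Figure D3:**
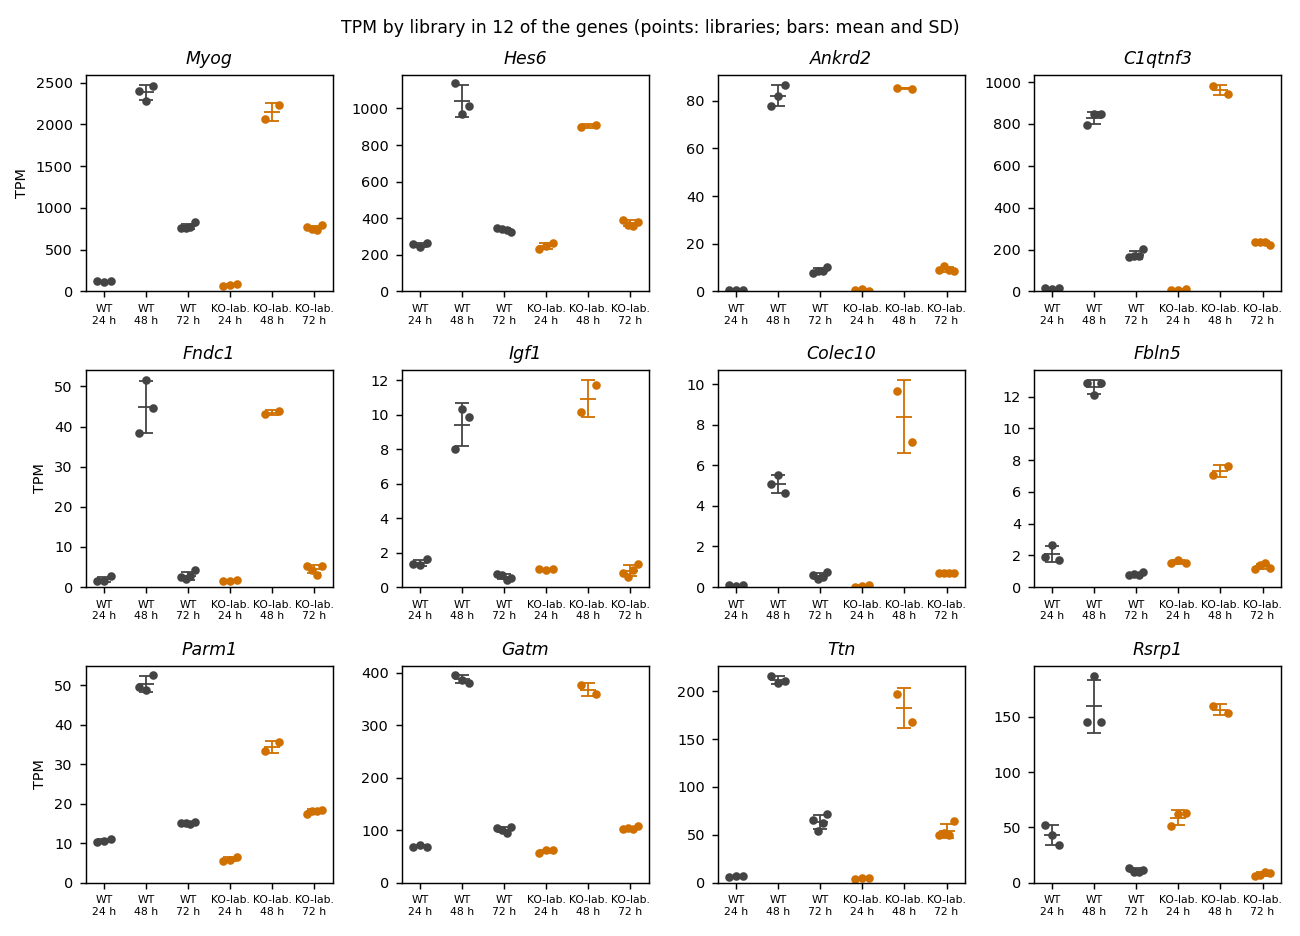
TPM in every library (points) with mean and SD (bars) for 12 of the genes, in the 3 WT groups (grey) and the 3 KO-labelled groups (orange) at 24, 48 and 72 h. Each of the 12 peaks at 48 h under both labels, Fbln5 and Parm1 lower at 48 h in KO-labelled libraries and Colec10 higher.

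Receptors, channels and other membrane proteins formed the largest group, with 16 members. Best1, a calcium-activated chloride channel known from the retinal pigment epithelium, was at 0.111, 0.209 and 0.159 TPM in WT at 24 h, 6.36, 10.4 and 8.72 at 48 h and 0.968, 1.08, 1.07 and 1.27 at 72 h. KO-labelled libraries held 0.0792, 0.0306 and 0.0311, then 9.68 and 11.5, then 1.01, 0.842, 0.789 and 0.662 TPM. At 24 h each KO-labelled library had at most 3 counts, so its CPM at 48 h was at least 133.1-fold higher than the level that 3 counts per library give. Its start lies 36 bases from that of Rab3il1, a Rab guanine nucleotide exchange factor read in the opposite direction, at chr19:9985174-10001633 and chr19:10001669-10038380. Rab3il1 was at 3.51, 3.34 and 4.9 TPM in WT at 24 h, 19.8, 17.8 and 19.5 at 48 h and 5.83, 5.54, 4.4 and 6.13 at 72 h. The 48 h libraries of both genes lay above all others in WT, and the ratio of the 48 h to the 24 h mean, with 0.1 TPM added to each, was 33.1 in Best1 and 4.77 in Rab3il1.

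Cnr1, the cannabinoid receptor of neurons, was at 1.14, 0.806 and 0.873 TPM in WT at 24 h, 19.2, 20.2 and 18.7 at 48 h and 5.22, 5.64, 4.58 and 4.62 at 72 h, and under the KO label at 0.754, 0.784 and 0.707, then 21.2 and 20.1, then 4.38, 5.06, 4.82 and 4.71 TPM. At 48 h both KO-labelled values were among or above the WT values, and the counts were called slightly higher (log2 fold change 0.20, SE 0.061, edgeR adjusted p = 0.0192). Il1r1, the receptor of interleukin-1, was at 8.29, 8.37 and 9.37, then 27.1, 33.5 and 33.1, then 10.5, 8.38, 8.96 and 9.3 TPM in WT and at 10.4, 11 and 12.1, then 45 and 42.7, then 12.8, 12.3, 12.5 and 12.3 TPM in KO-labelled libraries. Il1r1 was the single member called higher under the KO label at all 3 times, with log2 fold changes of 0.33, 0.56 and 0.53 (SE 0.067, 0.060 and 0.062, edgeR adjusted p = 0.00124, 8.5e-08 and 9.14e-07). It was chosen for mention after its values were seen. Tspan33, a tetraspanin, Slc44a4, a choline-like transporter, and Btla, an inhibitory receptor of lymphocytes, rose by 4.16, 5.70 and 6.24 on the log2 scale from 24 h to 48 h in KO-labelled libraries. Of the membrane group, 10 of 16 kept a ratio of 3 in KO-labelled libraries.

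Enzymes and carriers of small molecules numbered 14. Gatm, which makes the creatine precursor guanidinoacetate, was the most abundant of them, at 68.4, 71.2 and 68.3 TPM in WT at 24 h, 397, 386 and 381 at 48 h and 104, 101, 94.2 and 105 at 72 h. KO-labelled values were 56.2, 61.4 and 61.5, then 376 and 359, then 103, 104, 103 and 107 TPM. The libraries of each group lay within a narrow band, and the labels overlapped at 72 h. Ptgis, the prostacyclin synthase, was at 0.636, 0.529 and 0.558 TPM, then 6.69, 5.18 and 7.18 TPM, then 0.238, 0.435, 0.207 and 0.493 TPM in WT, and Awat2, an acyltransferase that makes wax esters, at 0.58, 0.538 and 0.51, then 5.65, 6.93 and 5.71, then 0.121, 0.174, 0.378 and 0.312 TPM. Cmah, the hydroxylase that makes N-glycolylneuraminic acid, was at 0.603, 0.531 and 0.604, then 5.49, 6.64 and 6.06, then 0.265, 0.353, 0.313 and 0.655 TPM. These 3 enzymes were under 1 TPM on both sides of the peak. In KO-labelled libraries they reached 5.28 and 5.58, 5.78 and 4.73 and 4.73 and 4.46 TPM at 48 h, and none was called between the labels at any time.

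Amino acid and sterol enzymes were also in the set. Gldc, the glycine decarboxylase of mitochondria, was at 0.581, 0.651 and 0.614 TPM in WT at 24 h, 6.08, 5.84 and 5.11 at 48 h and 1.41, 1.27, 1.43 and 1.69 at 72 h. Ddc, the decarboxylase of aromatic amino acids, was at 3.25, 1.87 and 2.08, then 35.3, 35.6 and 35.8, then 12.3, 10.3, 11 and 12.4 TPM. Both stayed above their 24 h level at 72 h. Lss, which closes the sterol ring of lanosterol, was at 12, 12.2 and 11, then 31.2, 34.8 and 44.5, then 8.83, 9.18, 15.5 and 14.2 TPM, with a wide spread at 48 h. Cyp46a1, a cholesterol hydroxylase of neurons, Crabp2, a carrier of retinoic acid, Phka2, a regulatory subunit of phosphorylase kinase, and Ggcx, the vitamin K-dependent carboxylase, had WT 48 h means of 5.91, 21.5, 54.6 and 45 TPM.

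The 8 members of the cytoskeleton, adhesion and small GTPase signalling group included very large structural proteins. Ttn, the sarcomeric spring titin, was at 6.31, 6.8 and 7.02 TPM in WT at 24 h, 216, 208 and 210.3 at 48 h and 65, 54.2, 62.2 and 71.2 at 72 h. Under the KO label it was at 3.63, 4.43 and 4.49, then 197 and 168, then 49.7, 51.6, 49.8 and 64.4 TPM. The 72 h level stood well above the 24 h level under both labels, by 4.48 on the log2 scale (SE 0.12, edgeR adjusted p = 3.28e-23) in KO-labelled libraries. Ttn was the single member among 52 tested genes of sarcomere and its assembly. Under the KO label, 49 of these rose and 2 fell from 24 h to 48 h, where 41.3% and 42.5% of all genes did. From 48 h to 72 h, 31 rose and 13 fell, where 35.8% and 34.4% of all genes did. The medians of the list were 5.17 and 0.39.

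Macf1, which links microtubules to actin, was at 106, 125 and 116 TPM in WT at 24 h, 375, 389 and 374 at 48 h and 114, 89, 117 and 125 at 72 h. Sptan1, the alpha chain of non-erythroid spectrin, was at 65.6, 84.7 and 79.6, then 254, 259 and 271, then 88.6, 75.6, 80.2 and 98.7 TPM, and Trio, a guanine nucleotide exchange factor used in myoblast fusion, at 17.6, 20.9 and 20.2, then 86.9, 106 and 97.2, then 33.8, 26.9, 30.3 and 37.2 TPM. None of the 3 was called between the labels. For Trio the counts moved less than the TPM, with a fall of 0.84 on the log2 scale from 48 h to 72 h in KO-labelled libraries beside a ratio of 2.92 between the TPM means. Lims2, an adaptor of integrin-linked kinase, was at 0.401, 0.425 and 0.846 TPM in WT at 24 h, 13.9, 14.2 and 9.06 at 48 h and 2.13, 0.802, 0.781 and 0.91 at 72 h, and at 0.273, 0.398 and 0.0726, then 18.9 and 13.2, then 0.871, 1.72, 1.2 and 0.902 TPM in KO-labelled libraries. With at most 3 counts in each KO-labelled library at 24 h, its CPM at 48 h was at least 103.3-fold higher than the level that 3 counts per library give. Ppfia4, a liprin scaffold of synapses, lies 4235 bases from Myog on the opposite strand, at chr1:134296783-134332928, and was at 1.87, 2.09 and 2.81, then 88.5, 99.6 and 92.5, then 25.8, 20.4, 22.2 and 22.5 TPM in WT.

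All 10 members of vesicle traffic and cytoplasmic signalling rose and fell in KO-labelled libraries, as did 89 of all 90 members. Of all genes tested, 17.3% did so. Syt8, of the synaptotagmin family of vesicle proteins, was at 0.302, 0.0853 and 0.0863 TPM in WT at 24 h, 6.36, 8.59 and 5.71 at 48 h and 0.662, 1.08, 0.243 and 0.191 at 72 h. KO-labelled libraries held 0.217, 0.623 and 0.333, then 5.65 and 4.91, then 0.448, 1.93, 0.224 and 0.987 TPM. The 48 h libraries did not overlap the others, and the 72 h values were widely spread under both labels. Sh2d4b, an SH2-domain adaptor, went from at most 1 count in any 24 h library to 6.53, 8.46 and 7.52 TPM in WT and 10.3 and 9.22 TPM in KO-labelled libraries at 48 h, which in the latter is at least 127.2-fold higher in CPM than the level that 3 counts per library give. Nrbp2, a pseudokinase, was at 4.16, 3.67 and 3.19, then 40.4, 50.2 and 49.4, then 16.3, 15.4, 15.6 and 14.4 TPM in WT.

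Among the 5 members of RNA processing and nuclear proteins, 3 were called lower and 2 higher at 72 h than at 24 h in KO-labelled libraries, where 44.5% of all genes tested were lower and 42.7% higher. Rsrp1, an arginine- and serine-rich protein, was at 52.4, 43.1 and 33.8 TPM in WT at 24 h, 145, 187 and 145 at 48 h and 13.2, 9.79, 9.52 and 11.8 at 72 h. KO-labelled values were 51.5, 61.7 and 63.4, then 160.0 and 153, then 5.83, 6.52, 9.78 and 8.47 TPM. Every 72 h library lay under every 24 h library under both labels. In KO-labelled libraries Rsrp1 at 72 h was lower than at 24 h by 2.70 on the log2 scale (log2 fold change -2.70, SE 0.13, edgeR adjusted p = 2.82e-17), Ccnl2, a cyclin of splicing kinases, by 0.96 (-0.96, SE 0.097) and Leng8 by 1.15 (-1.15, SE 0.081). Zfr2 and Utp14b instead ended above their 24 h level. Utp14b shares its locus and strand with Acsl3, so its reads can be exchanged with those of that gene.

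The 10 remaining members have other roles or are poorly described, and 6 of them kept a ratio of 3 under the KO label. 1520401A03Rik was at 0.526, 0.0623 and 0.0475 TPM in WT at 24 h, 9.49, 11.6 and 8.11 at 48 h and 0.713, 0.225, 0.151 and 0.496 at 72 h, with KO-labelled values of 0.128, 0.285 and 0.177, then 10.4 and 9.12, then 0.336, 0.168, 0.499 and 0.901 TPM. Its ratio to the higher flank was the largest of the set in WT, and its 48 h values overlapped between the labels. Rtl3, a gene derived from a retrotransposon, and Fbxo17, an F-box protein, had WT 48 h means of 12 and 48.6 TPM. D830030K20Rik, uncertain as said, had the lowest KO-labelled ratio, with 15.7, 17.6 and 17.2 TPM at 24 h and 29.9 and 28.5 TPM at 48 h.

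Over all 90 members, 63 were higher at 72 h than at 24 h in KO-labelled libraries, where 42.7% of all genes tested were higher, and 14 were lower, where 44.5% were. In either direction 87.2% of all genes were called. The median log2 fold change was 1.14 against -0.035 over all genes. With scaling by library size alone the counts were 58 higher and 21 lower. All 8 cytoskeletal members and 9 of 10 vesicle members were called higher, and 3 of 5 RNA processing members were called lower. TPM and counts ran opposite ways in Macf1, called higher at 72 h (0.72) with KO-labelled mean TPM of 115 at 24 h and 92.7 at 72 h, and in Stc2, called higher (0.18) with 9.06 and 8.23 TPM.

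At 48 h, 28 members were called between the labels, where 25.2% of all genes were. Under the KO label 22 of them were higher, a call made in 11.0% of all genes tested, and 6 were lower, a call made in 14.1%. The median log2 fold change of the members was 0.089, beside -0.012 over all genes. All 28 differences were under 2-fold. The members were chosen for high WT values at 48 h, which favours lower KO-labelled values. The split was 16 higher and 11 lower with scaling by library size alone, and 10 higher and 5 lower with an offset for effective transcript length. Without KO-labelled replicate 2, which leaves 1 library at 48 h assumed to vary like the other groups, 18 members were called.

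Colec10 showed the largest rise, from 5.06, 5.55 and 4.64 TPM in WT to 9.68 and 7.14 TPM in KO-labelled libraries (log2 fold change 0.87, SE 0.12, edgeR adjusted p = 3.58e-06). Gal3st2, a sulfotransferase acting on galactose, was at 5.04, 6.18 and 5.25 TPM in WT and 8.54 and 10.3 TPM under the KO label (0.77, SE 0.14, edgeR adjusted p = 0.000148). Both sets of libraries were separate, with the lowest KO-labelled value above the highest WT value. Gmip, a GTPase-activating protein, was at 30.6, 30.6 and 29.3 and 41.2 and 35.9 TPM (0.56, SE 0.065, edgeR adjusted p = 2.57e-07), and Ripply1 at 17, 16.8 and 13.3 and 20.8 and 21.1 TPM (0.57, SE 0.14, edgeR adjusted p = 0.00265). Ermap, an erythroid membrane protein of the butyrophilin family, was at 12.5, 12.8 and 11.5 and 19.3 and 20.3 TPM (0.61, SE 0.14, edgeR adjusted p = 0.00226), a call that DESeq2 did not make at a like fold change (0.62, DESeq2 adjusted p = 0.1345). Col7a1, the collagen of anchoring fibrils, was at 3.9, 5.68 and 6.14 and 6.75 and 6.63 TPM (0.58, SE 0.12, edgeR adjusted p = 0.000428), a call lost with the offset for effective length (log2 fold change 0.48, edgeR adjusted p = 0.33).

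Fbln5, the fibulin that assembles elastic fibres, showed the largest fall at 48 h. It was at 12.9, 12.1 and 12.9 TPM in WT and 7.07 and 7.6 TPM in KO-labelled libraries (log2 fold change -0.65, SE 0.10, edgeR adjusted p = 3.48e-05). At 72 h the order was reversed, with 0.783, 0.819, 0.757 and 0.923 TPM in WT and 1.14, 1.36, 1.53 and 1.19 TPM under the KO label (0.73, SE 0.17, edgeR adjusted p = 0.00394). Parm1, a mucin-like membrane protein, followed the same course with 49.6, 48.9 and 52.6 against 33.3 and 35.5 TPM at 48 h and 15, 15.1, 14.8 and 15.4 against 17.3, 18, 18.2 and 18.5 TPM at 72 h. Its log2 fold changes between labels were -0.83, -0.41 and 0.29 at 24, 48 and 72 h (SE 0.059, 0.051 and 0.046, edgeR adjusted p = 7.86e-11, 1.04e-06 and 6.78e-05). The ratio of its 48 h to its 24 h mean, with 0.1 TPM added to each, was 4.72 in WT and 5.76 under the KO label, and that of 48 h to 72 h was 3.33 and 1.91. Tmem119, a membrane protein of bone and microglia, had the same sequence of calls, with -0.97, -0.25 and 0.31 (SE 0.081, 0.077 and 0.071).

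Fzd5 was lower under the KO label at 48 h by 0.38 on the log2 scale (log2 fold change -0.38, SE 0.064, edgeR adjusted p = 5.36e-05). Hspg2, the basement membrane proteoglycan perlecan, was at 139.8, 145 and 145 TPM in WT and 101 and 96 TPM in KO-labelled libraries at 48 h (-0.37, SE 0.11, edgeR adjusted p = 0.011). Lss had the smallest fall of the 6 (-0.17, SE 0.054, edgeR adjusted p = 0.0182). The calls of Hspg2, Tmem119 and Lss at 48 h were lost when single libraries were left out. Hspg2 missed the threshold without WT replicate 3 (log2 fold change -0.31, edgeR adjusted p = 0.0503), KO-labelled replicate 1 (-0.39, 0.0521) or KO-labelled replicate 2 (-0.34, 0.0885), at a fold change close to that of all libraries. Tmem119 missed it without WT replicate 1 (-0.20, edgeR adjusted p = 0.072) or KO-labelled replicate 1 (-0.15, 0.293). Lss missed it without WT replicate 3 (-0.12, edgeR adjusted p = 0.129) or KO-labelled replicate 1 or 2 (-0.15 and -0.19, 0.139 and 0.0632). Without either KO-labelled library, 1 is left in that group.

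**Figure D4:**
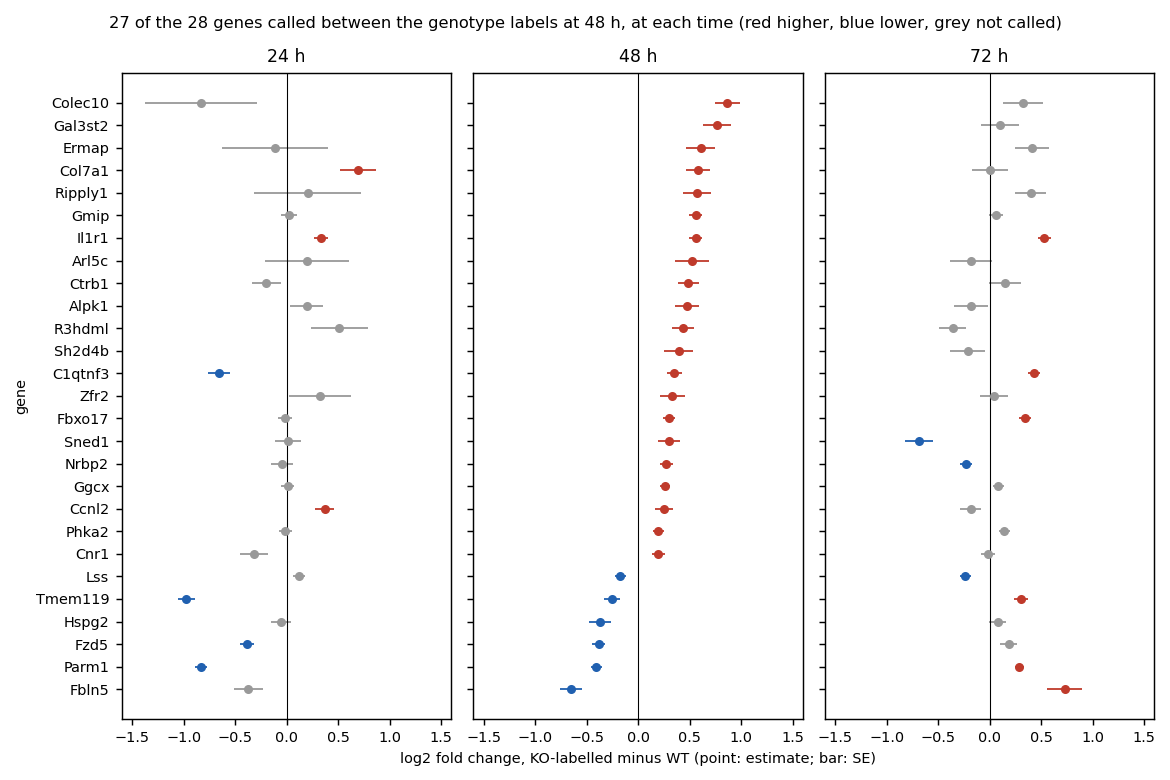
Log2 fold change (KO-labelled minus WT, x axis) with SE for 27 of the 28 genes called between the labels at 48 h, at 24 h (left), 48 h (middle) and 72 h (right). Of the 21 genes shown as higher at 48 h (red, middle), Il1r1 is red in all 3 panels. Fbln5, Parm1 and Tmem119 turn from blue at 48 h to red at 72 h. Sh2d4b and Gal3st2 have no point at 24 h. In both, each KO-labelled library there had at most 3 counts, as did each WT library for Sh2d4b.

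At 24 h, before the peak, 9 members were called higher under the KO label, where 4.86% of all genes were, and 15 lower, where 6.69% were (11.6% in either direction), with a median log2 fold change of -0.10 against 0.014 over all genes. The choice of members for low WT values at 24 h favours higher KO-labelled values. Scaling with the offset for effective length gave 3 higher and 12 lower. Alongside Myog, the members lower at 24 h included Ogn (6.31, 7.45 and 7.77 TPM against 13, 12 and 12.2 TPM in WT, log2 fold change -0.80, SE 0.076, edgeR adjusted p = 2.18e-08), Ttn (-0.66, SE 0.11, edgeR adjusted p = 0.000143), Ppfia4 (-0.66, SE 0.13) and Gatm (-0.21, SE 0.040). The summed skeletal markers, which include Myog, were also lower at 24 h, at 1376 to 1468 TPM against 1756 to 1943 TPM in WT, and their part in these differences was not tested. None of Myog, Ogn, Ttn, Ppfia4 and Gatm was called at 48 h. At least 2-fold lower at 24 h were 3 members with few counts there, Rtl3 (0.15, 0.224 and 0.281 TPM against 0.667, 0.844 and 0.804 TPM in WT), Btla (0.0532, 0.0207 and 0.104 against 0.192, 0.249 and 0.189 TPM) and Best1.

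At 72 h, after the peak, 13 members were called higher, where 6.32% of all genes were, and 5 lower, where 6.72% were (13.0% in either direction), with medians of 0.049 and -0.0063 over members and over all genes. Without KO-labelled replicate 4 at 72 h, 12 were called higher and 10 lower. Here too the choice of low WT values favours higher KO-labelled values. Besides those above, Tbx18 (0.29, SE 0.048), Fbxo17 (0.35, SE 0.057), and Adamts5 (0.24, SE 0.053) were higher, and Sned1, a matrix glycoprotein, lower (-0.69, SE 0.14). Across the 3 times, 43 members were called at none, 14 were higher at 48 h only and 8 were lower at 24 h only. Here "only" refers to the calls, and differences between times were not tested. These patterns were not counted over all genes tested, so they are not read as particular to the members. The mean TPM ran against the call in Tbx18 at 24 h, called higher under the KO label (0.21) with 7.52 TPM against 8.87 in WT, and in Sned1 at 48 h, called higher (0.30) with 18.9 TPM against 20.7.

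The TPM of a gene is a sum over its annotated transcripts. In part of the set most of it was assigned to transcripts annotated as keeping an intron and not as coding. In 20 members, or 22.2%, retained-intron transcripts made up at least 25% of the TPM at 48 h in WT. This compares with 10.2% of the 8686 protein-coding genes at 5 TPM. The share of members was also above that of those genes at 24 h (18.9% against 7.14%) and at 72 h (14.4% against 6.57%). In 8 members, or 8.89% against 2.44%, such transcripts made up at least 50% at 48 h. Among them were Csf2ra, a cytokine receptor chain (86.0%), Izumo4, a relative of a sperm-egg fusion protein (82.6%), and Spaca6, itself such a protein (80.6%). Col7a1 (76.0%), 1520401A03Rik (75.0%), Zfr2 (60.3%) and Ccnl2 (58.5%) were also among them. The gene with the largest ratio of all, 1520401A03Rik, thus had 2.44 TPM in coding transcripts at 48 h.

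In some of them the estimated level of retained-intron transcripts followed a different course from that of coding ones. Both are estimates per annotated transcript, and reads within introns were not examined. Izumo4 had 0.662, 9.05 and 0.993 TPM in retained-intron transcripts at 24, 48 and 72 h in WT, and 1.12, 1.73 and 0.4 TPM in coding ones. Ccnl2 had 5.65, 43.6 and 3.6 TPM in the former and 7.1, 10.5 and 4.9 TPM in the latter. Rsrp1 had 58.1 TPM in retained-intron and 2.26 TPM in coding transcripts at 48 h, the rest being of other types, and its coding level was lower at 48 h than at 24 h, at 3.18 TPM. In Col7a1 the share of retained-intron transcripts was 82.3%, 76.0% and 70.4% at the 3 times in WT. The share of retained-intron transcripts in all TPM moved with time as well, at 5.95% to 6.0% in WT at 24 h, 5.46% to 5.75% at 48 h and 4.27% to 4.30% at 72 h, and so was not highest at 48 h. The share of the 8686 genes in which such transcripts made up at least 25% was highest at 48 h, at 7.14%, 10.2% and 6.57% at the 3 times in WT and 7.61%, 10.9% and 6.67% under the KO label. The part of either in these members was not tested. On protein-coding transcripts alone, the rule found 62 genes, of which 59 were members, and 31 members were lost, 1520401A03Rik, Syt8, Hes6 and Hspg2 among them, an alternative chosen after the data were seen. Of the 89 members tested on that basis in KO-labelled libraries, 86 rose to 48 h and 84 fell to 72 h. The shares over all genes were not taken on that basis. On all transcripts 41.3% of all genes rose and 34.4% fell.

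**Figure D5:**
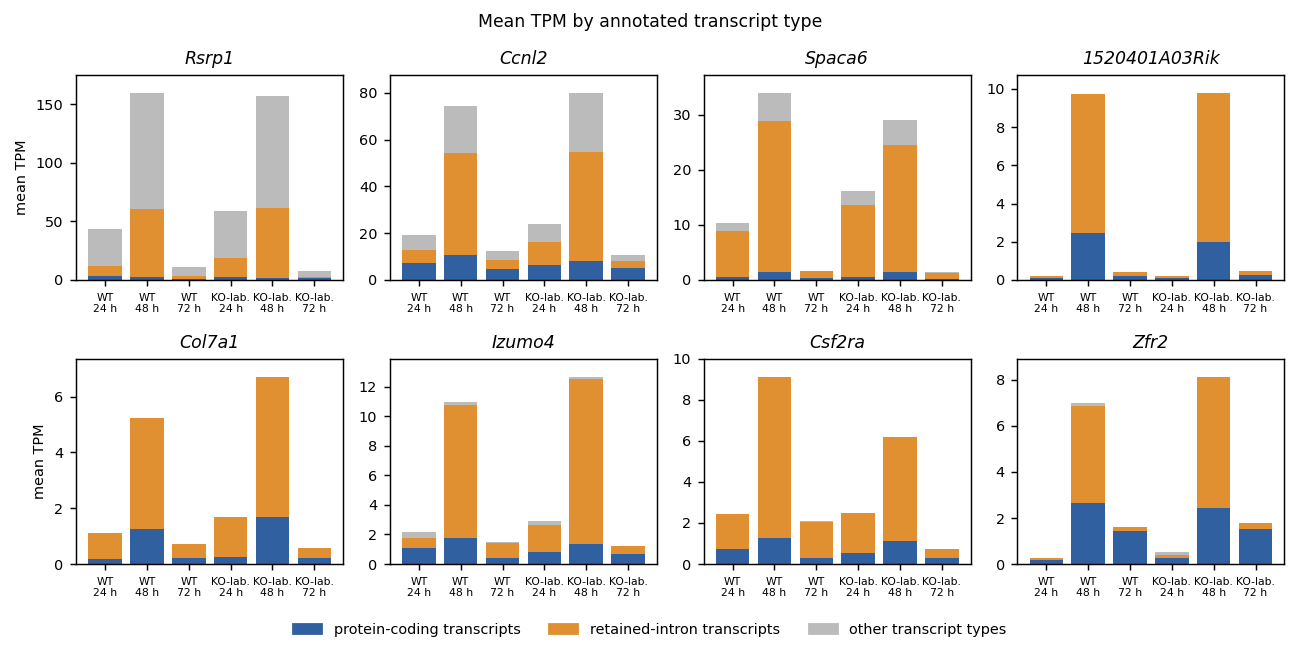
Mean TPM of 8 genes (panels), split into protein-coding (blue), retained-intron (orange) and other annotated transcripts (grey), in the 6 groups at 24, 48 and 72 h. The orange part makes up 58.5% of Ccnl2 and 86.0% of Csf2ra at 48 h in WT, and in Rsrp1 the blue part does not peak at 48 h.

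Members were spread over all autosomes and the X chromosome, with 9 on chromosome 1 as the most, and their median transcript length of 2228 bases was close to the 2263 bases of protein-coding genes at 5 TPM. Besides the pairs named above, 6 pairs lay within 1 Mb of each other, and in the closest of these, Gm45194 and 4933403O08Rik on the X chromosome, the genes overlap on the same strand, so their reads can be exchanged. Overlap with an antisense or opposite-strand gene also touches Ptgis, Krt80, Exoc3l, Tmem184a, Leng8, Ogn, Sned1, Smim6 and Tbx18, among others, whose reads cannot be told apart from those of the partner where strand was not used.

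The wider lists of muscle and signalling genes moved in more varied ways. Of 34 myogenic transcription factors and cofactors tested, among which Myog and Hes6 are members, 19 rose and 12 fell from 24 h to 48 h in KO-labelled libraries, 10 rose and then fell, and the medians were 0.96 and -0.015 for the 2 steps. Myod1, which encodes MyoD, was not transient in this way, with WT means of 527.7, 569 and 190.5 TPM. Mymk, the membrane protein myomaker that fuses myoblasts, stayed high after 48 h, with 64.8, 1693 and 1550 TPM. Of 36 genes of fusion and cell adhesion, 15 rose and 18 fell, and 8 rose and then fell. Of 19 genes of the acetylcholine receptor and neuromuscular junction, 16 rose and 2 fell, and 8 rose and then fell. Of 24 Notch pathway genes, 9 rose and 10 fell, and 6 did both in turn. Among 44 genes of ion channels and calcium handling, 35 rose from 24 h to 48 h and 31 rose from 48 h to 72 h, with medians of 3.65 and 0.61 for the 2 steps, and 9 rose and then fell. These counts stand beside the 17.3% of all genes that rose and then fell. From 24 h to 48 h 41.3% of all genes rose and 42.5% fell, and 35.8% rose from 48 h to 72 h.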

How the data were processed

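RNA was measured in 19 libraries made, per the labels' protocols, with an RNeasy extraction kit and an Illumina TruSeq mRNA kit. Each library has 1 file deposited by the authors in the kallisto layout, holding estimated counts and TPM values of 121843 transcripts, per the file headers. The submitters' processing notes name bcl2fastq 2.20, fastp 0.20.0, kallisto 0.46.1, edgeR 3.36 and build GRCm38.p6. Here, transcripts were assigned to 35598 genes with GENCODE M21 and 825 without a match were left out. TPM and estimated counts were summed per gene, and the counts were rounded. TPM served the rule, which is not a test, and the printed levels.

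Counts of all 19 libraries entered 1 edgeR 4.0.16 quasi-likelihood fit (R 4.3.3) with 6 group means, TMM scaling and filterByExpr, which left 15123 genes and all 90 members. All groups share 1 estimate of the spread because 1 group has 2 libraries. Benjamini-Hochberg adjustment ran over all genes tested and a call was an adjusted p under 0.05. The fit was also run on simulated counts for the KO-labelled 48 h against 24 h comparison. That simulation had few changed genes and the same spread for every gene, unlike these data, so nothing is concluded from it. CPM are edgeR's counts on a common library scale after TMM scaling. Bounds from 3 counts per library cover counting error only, as PCR reads are not independent molecules.

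The members and gene lists were chosen with earlier results of these data known, and the roles were assigned after values were seen. Leaving out symbols of the Gm and Rik forms, genes named were the 10 with the largest WT ratio, the 6 highest at 48 h, the 6 largest rises and falls between labels at 48 h without overlap in CPM, the 6 largest KO-labelled ratios, members of a list, and the 3 on each side of the threshold. Some of these genes are not reported here. Other genes named were picked after their values were seen. Whether the counting used strand is not given in the sources used here. Alternatives changed the rule, scaling, filter, test, length offset, block, transcripts and libraries.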

Additional observations from a re-analysis of the deposited data

Results flagged for a closer look

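In groups of 4 libraries, the highest value of a named member was compared with the nearest of the others relative to the range of the group (Dixon's test), in 70 groups. Chance marks about 1 in 20 groups, and 7 were marked here. Only the 72 h groups have 4 libraries, so no other time was tested. Lims2 was at 2.13 TPM in WT replicate 1 against 0.781 to 0.91 TPM in the other 3 libraries, and C1qtnf3 was at 204.5 TPM in WT replicate 4 against 162.6 to 169.7 TPM.

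The other 5 all had KO-labelled replicate 4 as the highest library. Gnrh1 was at 1.9 TPM there against 0.249 to 0.372 TPM in the others, Macf1 at 112.8 against 83.96 to 88.7 TPM, Gmip at 10.56 against 8.54 to 8.81 TPM, Adamts1 at 12.12 against 10.75 to 10.96 TPM, and Ttn at 64.4 against 49.7 to 51.6 TPM. With 16168131 estimated counts this was the library of lowest depth, whose part in these values was not tested. Leaving it out kept 89 members called lower at 72 h than at 48 h, and changed the calls between the labels at 72 h from 13 higher and 5 lower to 12 higher and 10 lower.

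In 8 members the calls between the labels went in opposite directions at different times, with no overlap in CPM between the libraries of the labels at either time. In TPM the labels overlapped in Ppfia4 at 72 h and in Nrbp2 at 48 h. The difference between the times was not tested. KO-labelled libraries were lower at 24 h and higher at 72 h in Parm1 (log2 fold changes -0.83 and 0.29), Tmem119 (-0.97 and 0.31), Ppfia4 (-0.66 and 0.19) and Rtl3 (-1.81 and 0.35). Parm1 and Tmem119 were lower at 48 h too (-0.41 and -0.25). In C1qtnf3 the change came by 48 h (-0.66 at 24 h, 0.35 at 48 h and 0.43 at 72 h). Fbln5 was lower at 48 h and higher at 72 h (-0.65 and 0.73). Nrbp2 was higher at 48 h and lower at 72 h (0.28 and -0.23). D830030K20Rik, uncertain for its near-identical relatives, was higher at 24 h and lower at 72 h (0.58 and -0.90).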

How the results depend on the processing

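The number of members followed the thresholds: 265 at a ratio of 2, 22 at a ratio of 5 and 159 at a mean of at least 1 TPM, against 90. Leaving out each WT library gave 85 to 96. With CPM after TMM scaling in place of TPM the rule found 86 genes, 73 of them members.

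The rise to 48 h and the fall to 72 h in KO-labelled libraries were called in 84 to 90 members under every alternative run. Between the labels, the offset for effective transcript length left 15 members called at 24 h and 15 at 48 h, and a minimum of 2-fold left 3 at 24 h, 0 at 48 h and 0 at 72 h. Leaving out each library gave 18 to 21 at 24 h, 18 to 29 at 48 h and 16 to 22 at 72 h. At 72 h, 27 members were called without a filter, 16 higher and 11 lower. Coding transcripts alone gave 3 higher and 15 lower at 24 h. Scaling by library size alone shifted the median of all genes from 24 h to 48 h under the KO label by -0.31.

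Of 62 results on named genes, 57 kept direction and side of the threshold under all alternatives. The other 5 are Ermap, Col7a1, Hspg2, Tmem119 and Lss between the labels at 48 h, and none reversed. Lss was lost also with DESeq2 (-0.16, adjusted p = 0.0507), the length offset (-0.22) and coding transcripts (-0.18), and Ermap with coding transcripts (0.78, adjusted p = 0.165), for causes that were not tested.

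Correlations of the deviations of same-numbered libraries from their group means were -0.051 to 0.029. With so few libraries per group, such values cannot show whether same-numbered libraries shared an animal or culture. With the replicate block, 89, 89 and 78 members were called for the 3 comparisons within the KO label, and 25, 27 and 22 between the labels at 24, 48 and 72 h.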
